A study of Mus musculus with 12 samples.

Results

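The DNA methylation and demethylation enzymes of the aging mouse testis were the genes Dnmt1, Dnmt3a, Dnmt3b, Dnmt3l, Tet1, Tet2, Tet3, Uhrf1, Uhrf2 and Tdg. Their members were chosen by gene symbol, as all transcripts of these symbols whose assembled structure matched or overlapped a known one (class codes =, c, j and o of the assembly comparison). This gave 40 transcripts of 10 genes, out of 71967 transcripts of 31954 genes and loci, with 36 transcripts of class = and 4 of class j. The samples were the testes of 12 C57BL/6 mice without any transgene or treatment, 3 mice at each of 3, 6, 12 and 18 months after birth (3M, 6M, 12M and 18M). The sources used here do not say whether mice of 1 age shared a litter, so p-values measure the spread between these mice. Each library held 50924104 to 71803379 estimated reads (median 56236682), of which the 10 genes took 0.0187% to 0.0229%. Whole testes were sequenced, so fewer cells of a type and less RNA per cell cannot be told apart in any result.

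DNA methylation in mammals is a methyl group on the cytosine of a CpG. DNMT1 copies it onto the new strand after replication and is brought to hemimethylated sites by UHRF1, while DNMT3A and DNMT3B methylate unmarked DNA and DNMT3L, which lacks catalytic activity, stimulates them. The TET enzymes oxidize methylcytosine, and TDG cuts out the most oxidized forms so that base excision repair can put back an unmethylated cytosine. In the male germ line the pattern is set largely before birth in prospermatogonia and is then copied in dividing spermatogonia, and Dnmt1 and Dnmt3l are known to use other first exons in germ cells than elsewhere.

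Because the forms of Dnmt3l and Dnmt1 were told apart by their first exons, the DNA next to their start sites is shown first. The stretches are from RefSeq (GRCm38.p6), end at the base before the start site, are written 5′ to 3′ on the strand of the gene, and have each CpG in capitals. For Dnmt3l, on the plus strand, the most downstream start is followed by the exon that carried nearly all of the first-exon coverage, and the second start of the gene opens a form that was hardly covered. They lie at chr10:78055085-78055334 and chr10:78049592-78049841.
Dnmt3l most downstream start: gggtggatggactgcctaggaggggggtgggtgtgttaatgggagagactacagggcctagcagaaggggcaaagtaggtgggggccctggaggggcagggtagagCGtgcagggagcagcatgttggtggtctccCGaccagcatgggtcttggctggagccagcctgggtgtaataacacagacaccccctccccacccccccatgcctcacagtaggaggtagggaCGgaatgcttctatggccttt
Dnmt3l second start: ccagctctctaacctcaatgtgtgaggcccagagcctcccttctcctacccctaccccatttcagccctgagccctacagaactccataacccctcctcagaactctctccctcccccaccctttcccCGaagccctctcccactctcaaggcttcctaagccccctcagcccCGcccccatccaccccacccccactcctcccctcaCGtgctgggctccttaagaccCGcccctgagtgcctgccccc
For Dnmt1, on the minus strand, the most downstream start is shown with the 84 bases that separate its first exon from the exon before it, at chr9:20952624-20952707, and the start of that preceding exon, which opens the somatic form, with 250 bases at chr9:20952980-20953229.
Dnmt1 most downstream start: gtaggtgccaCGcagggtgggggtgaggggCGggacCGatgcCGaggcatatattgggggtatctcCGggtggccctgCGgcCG
Dnmt1 somatic start: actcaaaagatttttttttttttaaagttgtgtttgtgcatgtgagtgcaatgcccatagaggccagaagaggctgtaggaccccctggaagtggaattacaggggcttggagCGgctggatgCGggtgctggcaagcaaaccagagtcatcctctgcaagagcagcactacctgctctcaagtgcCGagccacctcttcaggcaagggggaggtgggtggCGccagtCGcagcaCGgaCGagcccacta
The 250 bases before the most downstream Dnmt3l start held 3 CpG, and 29.1% of 32817 RefSeq start windows held fewer. Before the second start there were 4. The most downstream Dnmt1 start had 26 CpG in its 250 bases, which include the preceding exon, more than 90.4% of windows, and the somatic start had 7. Over the 17 windows of the 10 genes the median was 17 CpG, against 6 over all windows. The windows follow RefSeq starts, which were not always those of the forms measured here. The Tet3 window lay at the internal start of NM_183138 (chr6:83441678). That of Tet1 lay at chr10:62887324, outside the assembled gene, which ended at 62880014. No window lay at the start of MSTRG.4051.3, the leading form of Dnmt3a (chr12:3816640). The Tet2 start had the most, with 51, and the most upstream Dnmt1 start the fewest, with 2.

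Short motifs were searched on both strands in the same windows, from 250 bases before to 50 bases after each start. The letters GGGCGG, to which SP1 is known to bind, stood in 13 of the 17 windows, against 35.6% of all windows. TATAAA stood in 0 of the 17 and in 13.6% of all. The palindromic motif of NRF1 was found in 2, the somatic and the most downstream Dnmt1 windows, against 0.966% of all. TGACGTCA, the cAMP response element, was found in the Tdg window alone, against 1.79% of all windows, and CACGTG in windows of Dnmt3a, Dnmt3l and Tdg, against 7.15%. The windows of 1 gene can overlap, and a match says only that these letters are present.

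**Figure D1:**
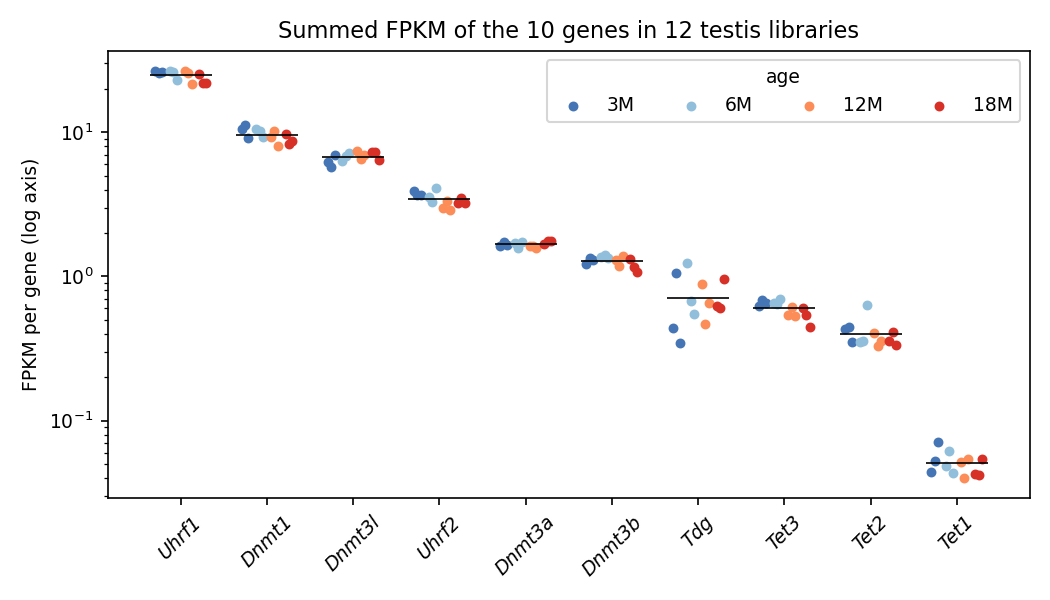
Summed FPKM per gene symbol (log axis) in each of the 12 libraries, with 1 point per mouse coloured by age and the mean over 12 libraries as a line. Uhrf1 was highest in every library with a mean of 24.8, Tet1 was lowest with a mean of 0.0505, and the ages lie on top of each other for most genes.

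The members were first ordered by level, as FPKM (fragments scaled to transcript length and sequencing depth) summed over the transcripts of a gene, which is the scale on which genes of unequal length can be compared. The maintenance genes Uhrf1 and Dnmt1 led. Uhrf1 (mm10 chr17:56302898-56323486) had a mean of 24.8 FPKM (SD 1.96, n = 12), above 89.2% of the 30083 genes with any FPKM. Dnmt1 (chr9:20907206-20959888) followed with 9.59 ± 1.002 FPKM, and Uhrf2 (chr19:30030513-30093724), a paralog of Uhrf1 that is not known to replace it in maintenance, had 3.45 ± 0.363. Uhrf1 exceeded Uhrf2 by 7.25 times on average, from 5.64 to 8.88 times in single libraries.

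Among the de novo genes, Dnmt3l, the gene of the inactive cofactor, had the highest sum. Of this sum 97.7% belonged to forms annotated with 126 codons. The forms of 421 codons, NM_001081695, NM_019448 and NM_001284197, had means of 0.0509, 0.0139 and 0.0900 FPKM. Dnmt3l (chr10:78042287-78063622) had 6.75 ± 0.512 FPKM, Dnmt3a (chr12:3806980-3914443) 1.67 ± 0.0645 and Dnmt3b (chr2:153649449-153687730) 1.28 ± 0.0988. The ratio of Dnmt3l to Dnmt3a, taken on sums over all forms, was 4.05 on average and stayed between 3.34 and 4.51. Dnmt3a was the steadiest member, with a coefficient of variation of 3.86% over the 12 libraries.

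By gene symbol, the demethylation genes were the low end of the order, which for Tdg held only without a further transcript on its exons, given below. Tdg (chr10:82629838-82650494) had 0.709 ± 0.271 FPKM, Tet3 (chr6:83362374-83456392) 0.603 ± 0.0734, Tet2 (chr3:133463677-133544390) 0.398 ± 0.0843 and Tet1 (chr10:62804570-62880014) 0.0505 ± 0.00916. Tet1 stood above 11.6% of genes with any FPKM. The sum of Dnmt1, Dnmt3a and Dnmt3b was 12.1 times the sum of the 3 TET genes on average, from 8.96 to 13.7 times.

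Neighbours in this order did not overlap in 6 of the 9 pairs, so that the lowest library of the higher gene was above the highest library of the lower gene. The ranges overlapped for Dnmt3b and Tdg, for Tdg and Tet3, and for Tet3 and Tet2. Within a library, Dnmt3b was still above Tdg in 12 of 12 and Tet3 above Tet2 in 12 of 12, whereas Tdg was above Tet3 in 8 of 12. 

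The place of Tdg in this order depended on a transcript that carried another symbol. The table lists the pseudogene Gm9855 (NR_037190) under the gene identifier of Tdg, and the deposited assembly lays it across 10 exons at chr10:82629842-82650277, with 100% of its 2898 exon bases inside exons of Tdg, whereas GENCODE vM21 has the processed pseudogene elsewhere, at chr10:42054113-42055306. This transcript held 224 to 421 estimated reads in each library, against 69 to 237 under the symbol Tdg. With both summed, a choice made after seeing the data, the level was 2.61 ± 0.183 FPKM and the coefficient of variation over the 12 libraries was 7.01%, in place of 38.3% for the symbol alone. At that level the locus stood above Dnmt3a in every library, since its lowest library had 2.33 FPKM and the highest of Dnmt3a 1.76. In addition 62 bases of Tdg exons, 1.93% of its exon length, overlap Glt8d2 on the other strand, and the libraries carried no strand information.

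The second question was which forms of these genes were present. Of the 40 transcripts, 19 had reads in all 12 libraries, 18 in some and 3 in none. The reads of exons shared by several forms are divided by the assembler, so the FPKM of single transcripts were compared with the coverage of exons that only some forms contain. Exon coverage was the mean coverage per base in the assembly of each library, summed over transcripts and scaled to 50000000 reads.

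Dnmt3l was transcribed from an internal start. The most downstream of its 4 first exons (chr10:78055335-78055716) held 93.5% of the coverage of all its first exons on average, from 89.9% to 97.1% in single libraries, and 97.7% of its FPKM belonged to the 3 forms that begin there. Its coverage was 31.2 on average, against 0.301, 0.480 and 1.35 for the other first exons, from upstream to downstream. The forms that begin at the upstream exons are annotated by GENCODE vM21 with a coding sequence of 421 codons, and those that begin at the downstream exon with 126 codons. The share at the downstream exon was 93.0% ± 3.44 in the 3M testes and 91.2% ± 1.74 in those of 18M (SD, n = 3), with 94.7% ± 1.23 and 95.1% ± 1.75 at 6M and 12M, without separation of the youngest and oldest testes. Of the 3 forms, NM_001284198 had 58.6% of the FPKM of the gene, NM_001284199 had 32.8% and NM_001284200 had 6.24%.

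Dnmt1 was transcribed from a pair of neighbouring starts. Its most upstream first exon (chr9:20959733-20959888) was covered in 1 of 12 libraries, at 0.00210. The somatic first exon (chr9:20952708-20952979), which opens a coding sequence of 1620 codons, had 25.0% of first-exon coverage, and the most downstream one (chr9:20951846-20952623), whose annotated form has 1502 codons, had 75.0%, from 62.2% to 89.3%. Coverage was higher at the downstream exon than at the somatic one in 12 of 12 libraries. The FPKM of the transcripts divided the gene more evenly, with 50.9% for the forms of the downstream exon and 48.9% for those of the somatic exon, and no single form exceeded 28.6% on average (MSTRG.20564.1, an assembled variant). By age, the downstream share of first-exon coverage was 71.7% ± 9.23 at 3M, 73.9% ± 2.38 at 6M, 82.4% ± 6.00 at 12M and 72.2% ± 9.09 in the oldest testes. The 12M libraries, at 78.3%, 89.3% and 79.6%, were all above those of 6M, which reached 76.2%, and the youngest and oldest overlapped. Mean coverage was lower at 12M than at 6M at both exons, 13.1 against 17.2 downstream and 2.62 against 6.12 at the somatic exon. By FPKM of forms the downstream share was 51.2% ± 13.3 at 6M and 52.2% ± 14.1 at 12M, with overlap.

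Uhrf1 showed how far the division among transcripts can depart from the exons. Its upstream first exon (chr17:56302898-56303561) had 2.70% of first-exon coverage, from 0.706% to 3.92%, yet the transcripts that begin there were given 33.5% of the FPKM, from 7.92% to 65.4%. The leading form, NM_001111078, ranged from 1.54% to 68.6% of the gene. The summed estimated reads of Uhrf1 ranged only from 4619 to 6124, and changes with age were therefore tested on summed reads.

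**Figure D2:**
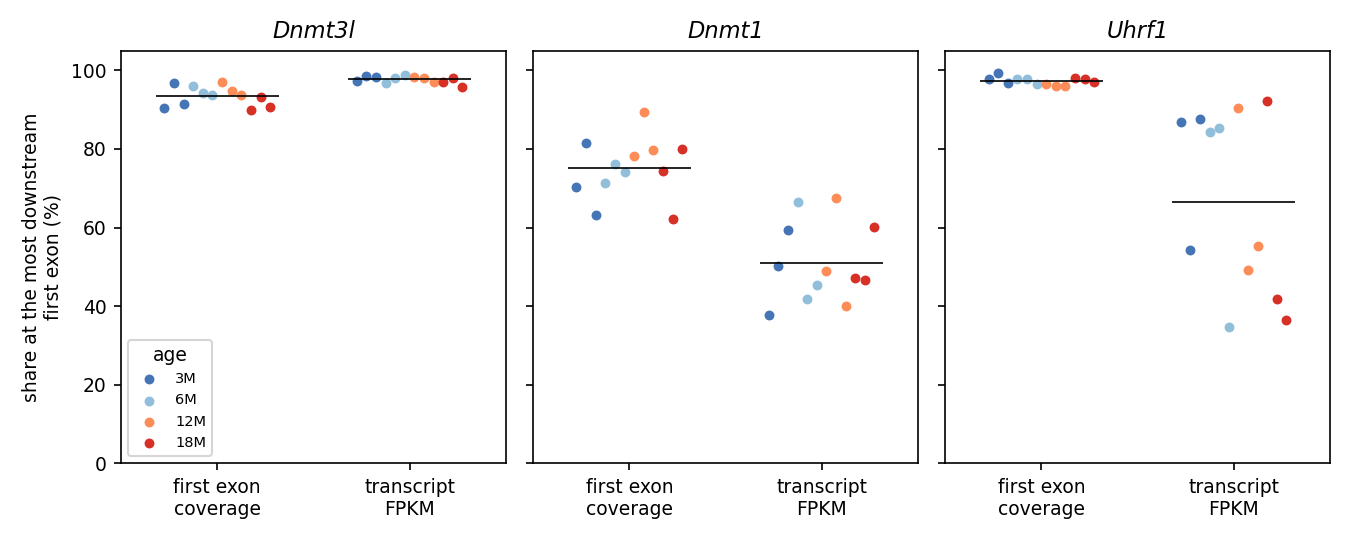
Share of the most downstream first exon (percent, 1 point per library coloured by age, line at the mean of 12 libraries) by the coverage of first exons (left of each panel) and by the FPKM of the transcripts (right). The measures gave 93.5% and 97.7% for Dnmt3l, 75.0% and 50.9% for Dnmt1, and 97.3% and 66.5% for Uhrf1.

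Dnmt3a was divided unstably by its transcripts and its first exons. Of its forms, the assembled variant MSTRG.4051.3 had 52.4% of the FPKM but from 0% to 93.6% in single libraries, NM_153743, the short form of 689 codons from an internal start, had 26.3% (6.46% to 94.7%), and NM_007872, a full form of 908 codons, had 21.4% (0% to 85.8%). The coverage of the 4 first exons varied as widely, with 32.5% at the internal start on average and from 2.91% to 100% in single libraries. The internal exons, looked at after the other values were known, gave a narrower range. The 5 exons that the full forms have and NM_153743 lacks, first exons left out, had 33.3% of the coverage per base of the 16 exons shared by all forms, from 25.3% to 48.3% in single libraries. By age this was 32.9% ± 5.16 at 3M, 42.0% ± 9.39 at 6M, 30.7% ± 2.85 at 12M and 27.7% ± 3.62 for the oldest testes, with overlap between the youngest and oldest. The 33.3% is a value of the full forms, whereas the 26.3% of FPKM and the 32.5% of first-exon coverage were shares of NM_153743. The measures therefore differed on whether the full forms or the short form was the larger part. The part of position along the gene in these values was not tested.

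Dnmt3b had coverage over its C-terminal cassettes in every library and little over the internal one. The 60-base exon at chr2:153670849-153670908, which is missing from several annotated forms, had 8.68% of the mean coverage of the constitutive exons on either side, from 0% to 26.1%, and was at 0 in 6 of 12 libraries. The exons of 70 bases (chr2:153683608-153683677) and 119 bases (chr2:153684359-153684477), whose skipping shortens the catalytic end of the protein, had 157% and 98.5%. They ranged from 92.8% to 218.7% and from 42.9% to 191.6%, and neither was at 0 in any library. Shorter annotated forms were also given FPKM. NM_001271747 and NM_010068, of 776 codons, had 15.8% and 5.01% of the gene, and NM_001003963, of 796 codons, had 6.47%. Coverage relative to neighbouring exons does not give the share of transcripts that skip an exon. The 115-base exon at chr2:153650785-153650899 near the start of the gene had 43.6% of its neighbours, from 0% to 110.2%, and was at 0 in 3 of 12 libraries. Between transcripts the FPKM moved widely, and the leading form NM_001122997, which contains the 60-base exon, ranged from 1.03% to 89.4% of the gene. In the library with 89.4%, a 6M testis, the 60-base exon had no coverage, so the share given to this form did not follow its exon. Dnmt3b had 269 to 385 estimated reads per library, which leaves few reads for a 60-base exon.

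The TET genes were covered mainly over the last exon, which holds the end of the coding sequence and the untranslated end. In Tet1 the last exon made up 62.8% of exon bases and took 85.7% of exon coverage, in Tet2 49.0% and 67.8%, and in Tet3 63.5% and 80.6%. Per base, the last exon exceeded the others by a median of 3.53 times in Tet1 (11 libraries, since 1 library had no coverage elsewhere), 2.28 times in Tet2 and 2.49 times in Tet3. The same ratio was 1.68 in Dnmt3l, 1.39 in Dnmt3b and also 1.39 in Uhrf2, and 1.07 in Uhrf1. It was 0.743 in Dnmt1, 0.495 in Dnmt3a and 0.439 in Tdg under its symbol alone. Higher coverage of the last exon was therefore not common to all members. For Tet1, between 5 and 11 of its 12 exons had no coverage in a library, and only 33 to 62 estimated reads stood behind each value, so that a full-length transcript was not detectable at this depth. For Tet3, at 356 to 488 reads, NM_001347313, which starts upstream, was given 91.2% of the FPKM and NM_183138, which starts at an internal first exon, 8.85%, nearly all of it in 1 library at 97.2%.

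**Figure D3:**
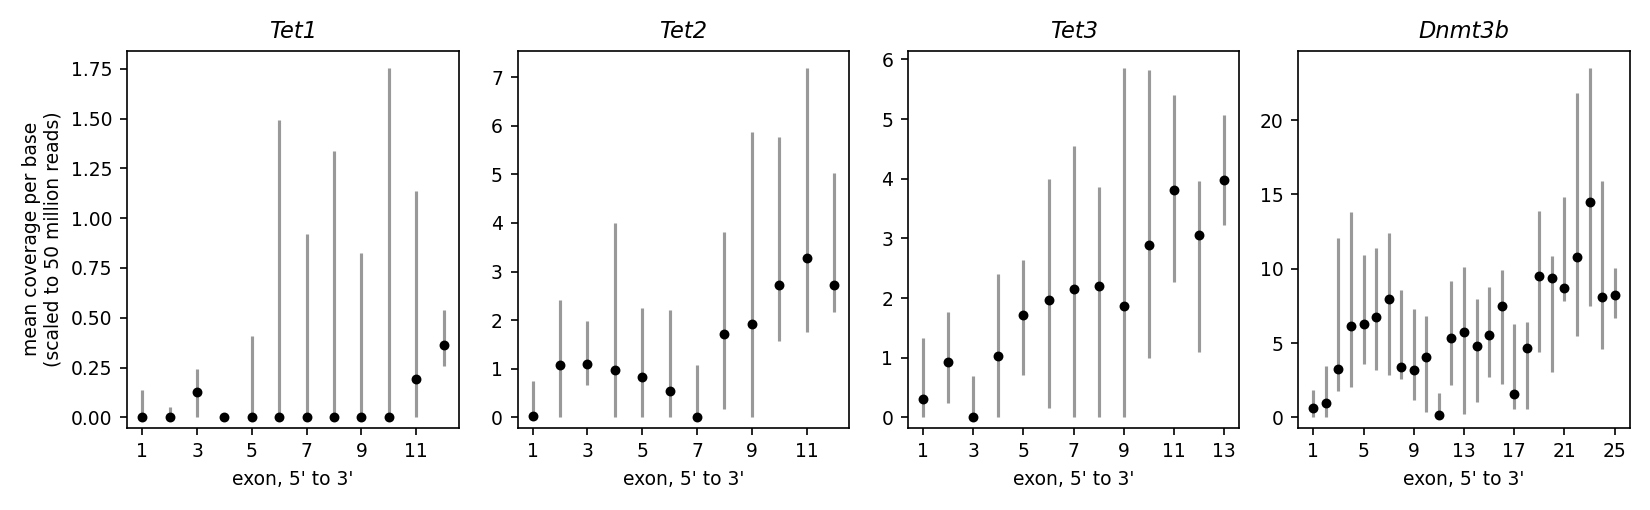
Mean coverage per base of each exon (scaled to 50000000 reads), numbered from 5′ to 3′ with alternative exons counted separately, as the median (point) and the range (line) over 12 libraries. The last exon of Tet1 was covered in every library while most others were at a median of 0, and the 60-base exon of Dnmt3b, the eleventh, stood far below its neighbours.

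The third question was whether the enzymes changed with age. No member passed the test in any of the comparisons of ages, at an adjusted p of 0.05 or less (edgeR quasi-likelihood test, Benjamini-Hochberg over all genes). Between 3M and 18M, 0 of 10 members were called, against 0.0641% of the 24965 genes tested. With the slope on age over all 12 libraries, 0 of 10 were called, against 0.168% of 25590 genes. DESeq2 also called 0 members in both. At an unadjusted p of 0.05 or less, 3 members were lower at 18M and 0 higher, against 6.34% and 5.62% of all genes, and 3 had a negative slope and 0 a positive one, against 8.37% and 6.83%. The median log2 change of the members from 3M to 18M was -0.14, against 0.0058 over all genes, and 7 of 10 were negative.

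Tet3 had the smallest p of the members in the slope. Its level in CPM (counts scaled to a library size of 1000000 with TMM normalization) was 7.78, 8.53 and 8.13 in the 3M testes and 8.13, 7.95 and 8.56 at 6M. It was 6.74, 7.75 and 6.13 at 12M, while the oldest testes had 7.45, 6.73 and 5.58 CPM. The lowest 3M testis was above the highest of 18M. The slope corresponded to a log2 change of -0.35 over 15 months (SE 0.11, adjusted p = 0.18 by edgeR), and the log2 change from 3M to 18M was -0.30 (SE 0.12, adjusted p = 0.42). The fitted level at 18M was 0.811 times that at 3M (95% confidence interval 0.660 to 0.997). Between 6M and 12M alone the log2 change was -0.26 (SE 0.11, adjusted p = 0.68).

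Uhrf2, which like Uhrf1 carries a domain that binds hemimethylated CpG, was at 14.8, 13.9 and 13.9 CPM at 3M and at 12.2, 13.1 and 12.3 CPM at 18M. The youngest and oldest testes did not overlap. In between, the 6M testes spread from 12.5 to 15.3 CPM and the 12M testes from 10.7 to 12.9. The log2 change from 3M to 18M was -0.18 (SE 0.07, adjusted p = 0.42 by edgeR), and the change over 15 months by the slope was -0.22 (SE 0.09, adjusted p = 0.29). The share of coverage at the end of the gene was higher in the later ages, with overlap between the youngest and oldest testes. The last exon took 32.7% ± 2.98 of the exon coverage of Uhrf2 at 3M, 35.9% ± 4.75 and 37.1% ± 2.54 in the middle ages and 39.0% ± 4.28 in the oldest (SD, n = 3). Per base its coverage was 23.1 at 3M and 24.6 at 18M, and that of the other exons 19.0 and 15.2. The part of this shift in the lower level was not tested.

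Uhrf1 was at 97.4, 98.1 and 96.6 CPM at 3M and at 94.0, 87.3 and 85.2 CPM at 18M, again without overlap. The 12M testes spanned both groups, at 97.6, 99.6 and 81.8 CPM. The log2 change from 3M to 18M was -0.13 (SE 0.05, adjusted p = 0.39 by edgeR), a level at 18M of 0.915 times that at 3M (95% confidence interval 0.845 to 0.991). In Uhrf1 too the last exon took a larger share of exon coverage in the oldest testes, 28.6% to 32.4% against 26.6% to 27.45% at 3M, without overlap. Its coverage per base was 116.5 at 3M and 120.0 at 18M, while that of the other exons was 115.9 and 101.5, and the part of this shift in the lower level was not tested. A higher share was not particular to Uhrf1 and Uhrf2. The mean share at 3M and 18M was 24.6% and 30.3% in Dnmt3l. It was 35.0% and 42.7% in Tdg under its symbol alone, without the Gm9855 transcript on its exons. In Tet2 it was 62.3% and 72.5%, in Tet3 79.7% and 81.95%, and in Dnmt1 3.90% and 4.82%. In Dnmt3a it was 48.8% and 50.4%, in Dnmt3b 42.6% and 44.4%, and in Tet1 87.0% and 86.8%. The ranges of these ages overlapped in each of these genes, and genes other than the members were not examined. With only the class = transcripts summed, which leaves out the assembled variants, the log2 change of Uhrf1 was -0.58 (adjusted p = 0.64), since the division of reads among forms then entered the value. The 3 members whose youngest and oldest ranges did not overlap, all lower at 18M, stood against 10.5% of all genes tested, and 0 members were higher without overlap, against 9.13%.

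Dnmt1, the partner of UHRF1, was at 62.8, 67.3 and 55.1 CPM in the 3M testes, 64.8, 60.6 and 54.4 CPM in those of 6M, 56.1, 63.0 and 46.8 CPM in those of 12M and 57.8, 49.4 and 52.3 CPM in the oldest. Its mean was lower at each later age, but the groups overlapped. The log2 change was -0.21 from 3M to 18M (SE 0.09, adjusted p = 0.43 by edgeR) and -0.22 over 15 months by the slope (SE 0.10, adjusted p = 0.31). The last exon of Dnmt1 had a mean coverage per base of 34.2 at 3M and 36.35 at 18M, and the other exons had 49.98 and 42.9. The part of this difference along the gene was not tested. The ratio of Uhrf1 to Dnmt1 in FPKM stayed between 2.30 and 2.88 in all 12 libraries.

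Dnmt3l was the only DNMT with a positive fitted change in both tests. It was at 9.25, 8.63 and 10.4 CPM at 3M and 9.03, 9.99 and 10.4 CPM at 6M. The 12M testes had 11.1, 10.03 and 10.3 CPM and the oldest 10.9, 10.8 and 9.66 CPM, with overlap between all ages. The log2 change was 0.15 from 3M to 18M (SE 0.10, adjusted p = 0.57 by edgeR), with a 95% confidence interval of -0.09 to 0.40. Dnmt3a had the narrowest interval of the DNMT genes around no change, with a log2 change of 0.02 (95% confidence interval -0.15 to 0.18), at 17.0 ± 0.747 CPM at 3M and 17.1 ± 0.625 at 18M (SD, n = 3). Dnmt3b was at 5.77 ± 0.216 CPM at 3M and 5.25 ± 0.627 at 18M, a log2 change of -0.13 (SE 0.11, adjusted p = 0.67 by edgeR).

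The remaining demethylation genes had wide intervals. Tet2 was at 4.05 ± 0.514 CPM at 3M and 3.62 ± 0.399 at 18M (SD, n = 3), with a log2 change of -0.16 (95% confidence interval -0.49 to 0.18), and its highest library was a 6M testis at 6.14 CPM. Tet1 was at 0.846 ± 0.211 and 0.705 ± 0.0998 CPM, with a log2 change of -0.25 (95% confidence interval -0.84 to 0.33). Tdg was at 2.12 ± 1.35 and 2.50 ± 0.688 CPM, with a log2 change of 0.25 (95% confidence interval -0.80 to 1.299). With the reads of the Gm9855 transcript that lies on its exons added, the log2 change of Tdg was -0.11 (adjusted p = 0.74 by edgeR).

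**Figure D4:**
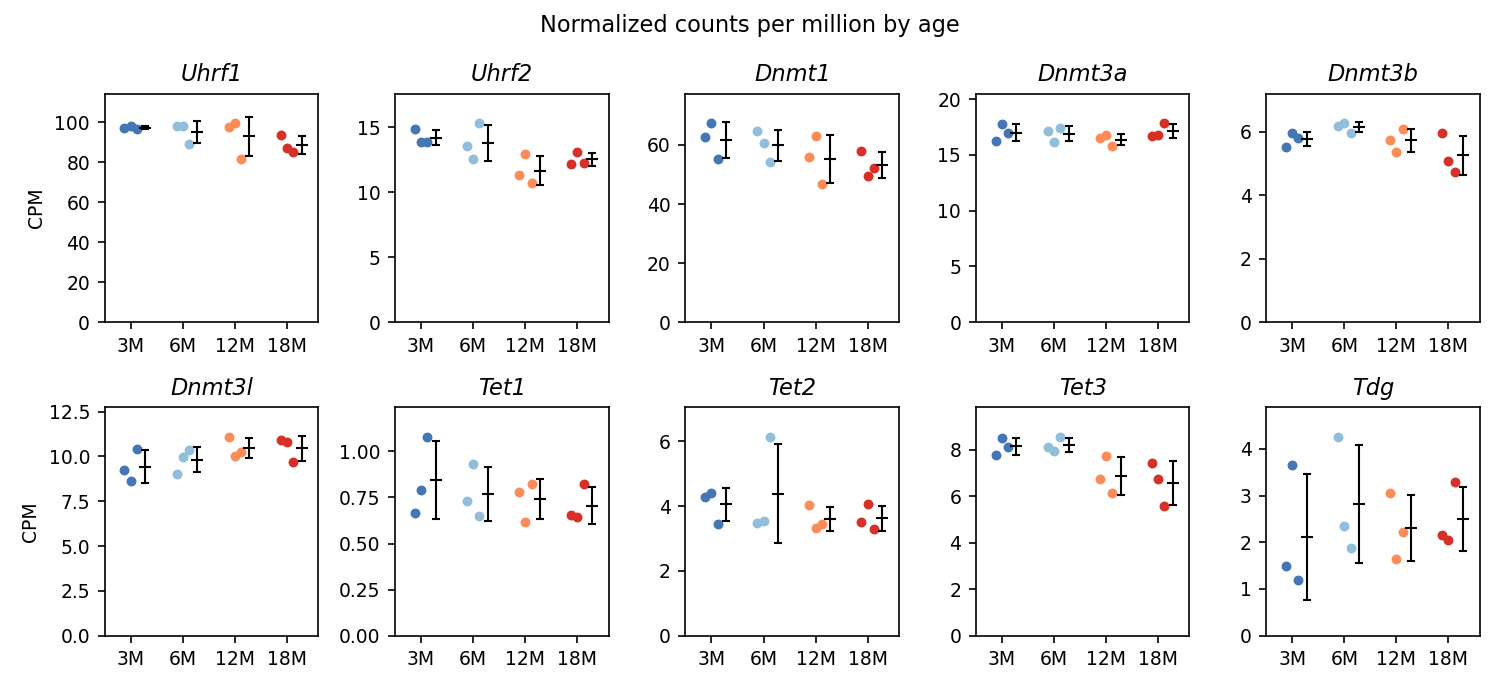
CPM with TMM normalization of each gene by age, with 1 point per mouse and the mean ± SD of 3 mice beside the points; each axis starts at 0. For Tet3 the 18M testes, at most 7.45, lie below the 3M testes, at least 7.78, and for Dnmt3a the means of the 4 ages lie between 16.4 and 17.1.

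**Figure D5:**
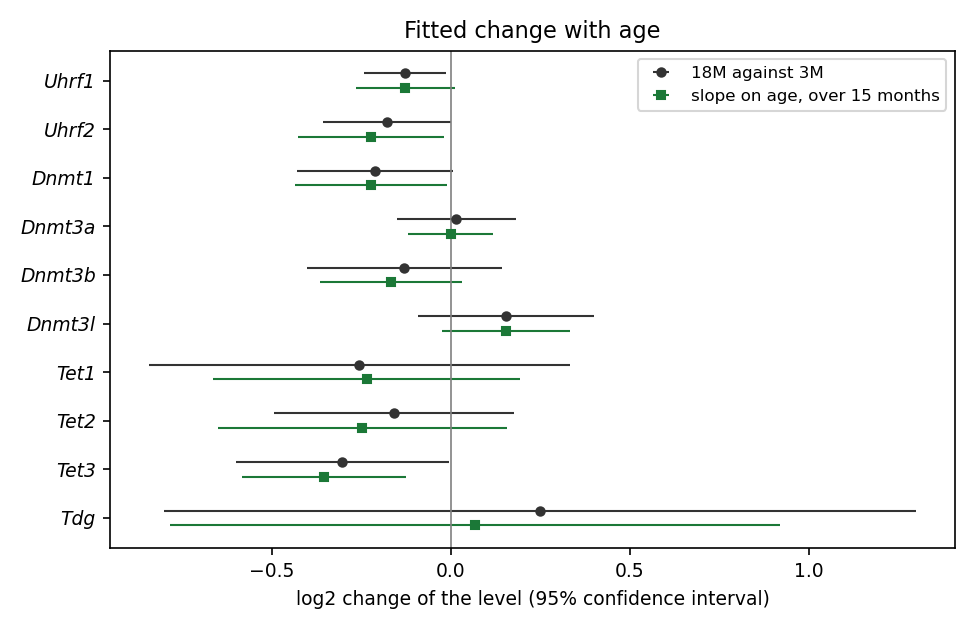
Fitted log2 change of each gene between 3M and 18M (circles) and over 15 months by the slope on age (squares), with 95% confidence intervals. Uhrf1, Uhrf2 and Tet3 have intervals below 0 for 18M against 3M, none of which passed the adjusted test, and the interval of Tdg spans -0.80 to 1.299.

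In the steps between neighbouring ages, 0 of 10 members were called between 3M and 6M (0.0682% of all genes), between 6M and 12M (0.0401%) and between 12M and 18M (0.016%), and 0 had an unadjusted p of 0.05 or less (3.9%, 7.48% and 3.52% of all genes). DESeq2 called 0 members in each step. The step from 6M to 12M was the one with the most negative changes, in 9 of 10 members, with a median log2 change of -0.11 against -0.0040 over all genes. At the level of single transcripts, 24 of the 40 were tested between 3M and 18M and 29 in the slope, and 0 were called by edgeR (0.108% and 0.0103% of all transcripts) or by DESeq2, with 0 at an unadjusted p of 0.05 or less (5.4% and 7.15% of all transcripts). The lowest p of a member transcript was 0.078, for the single Uhrf2 form NM_144873 in the slope (adjusted p = 0.76 by edgeR).

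The study treated a transcript as related to aging when its mean FPKM rose or fell at every step from 3M to 18M. On gene sums with a mean of 1 FPKM or more in at least 1 age, 6 members were kept. The mean of Dnmt3l was higher at each step, from 6.30 through 6.76 and 6.94 FPKM to its highest mean at 18M, a pattern of 7.34% of 20066 genes. That of Dnmt1 was lower at each step, from 10.3 to 10.01, 9.17 and 8.87 FPKM, and so was that of Uhrf1, from 26.1 to 25.3, 24.6 and 23.2, a pattern of 6.76% of genes. The criterion uses only the order of the means and no test. With TMM-normalized CPM in place of FPKM, Dnmt1 and Uhrf1 met it and Dnmt3l did not.

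The other genes of the pathway were described from a list of 59 genes, of which 54 were tested in the slope: cofactors and paralogs, readers of methylated CpG, the methyl donor cycle, and TET partners with deaminases and base excision repair. By edgeR 0 were called, against 0.168% of all genes, and 13 had an unadjusted p of 0.05 or less. Of these 11 were negative and 2 positive, against 8.37% and 6.83% of all genes. DESeq2 called 4, namely Ahcy, Ogt, Idh1 and Cxxc5. Idh1, which makes the oxoglutarate that TET enzymes need, was at a mean of 35.1 CPM at 3M and 25.7 at 18M (log2 change over 15 months -0.48, SE 0.10, adjusted p = 0.080 by edgeR). Ogt, the glycosyltransferase that binds TET proteins, was at 45.8 and 38.7 CPM (-0.30, SE 0.08, adjusted p = 0.17 by edgeR). Ahcy, which clears the S-adenosylhomocysteine left by methyl transfer, was at 31.5 and 26.0 CPM (-0.27, SE 0.07, adjusted p = 0.14 by edgeR). Cxxc5, a CXXC-domain protein related to the DNA-binding domain of TET proteins, was at 99.7 and 110.8 CPM (0.16, SE 0.04, adjusted p = 0.11 by edgeR). The median log2 change of the 54 genes over 15 months was -0.09, against 0.00071 over all genes.

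Markers of the cell types of the testis were set beside these values. All 55 markers had reads, and the summed CPM of 8 spermatid markers was 13770 to 19620 per library and that of 8 spermatocyte markers 1029 to 1121, so the defining germ cells of a testis were present in each. The 9 spermatogonial markers summed to 124.6 to 135.6 CPM at 3M and 128.1 to 130.9 at 18M, the 8 spermatocyte markers to 1063 to 1121 and 1048 to 1061 CPM, just without overlap, and the 8 spermatid markers to 14670 to 16240 and 15290 to 17960 CPM. The 8 Sertoli markers summed to 131.3 to 142.8 and 133.0 to 140.7 CPM. Over all 12 libraries the spermatogonial sum reached 144.1 CPM and the Sertoli sum 175.2 CPM. The markers of peritubular myoid cells summed to 65.1 to 80.05 CPM at 3M and 49.1 to 68.85 CPM at 18M, with overlap. The 7 Leydig markers summed to 871.1 to 1048 CPM at 3M and 550.2 to 760.1 CPM at 18M, without overlap. Over all 12 libraries the sum reached 1320 CPM, above every 3M testis. Insl3 was the largest part, at means of 567 and 452.9 CPM at 3M and 18M. Hsd3b1 was higher at 18M, at 40.6 CPM against 33.7. In the slope 2 of 7 were called lower, the steroid-making enzymes Cyp17a1 and Cyp11a1. Their log2 changes over 15 months were -1.48 (SE 0.12, adjusted p = 0.00014 by edgeR) and -1.63 (SE 0.20, adjusted p = 0.0058). DESeq2 called 5 of the 7 in the slope. By edgeR 6 had an unadjusted p of 0.05 or less, all lower, against 8.37% of all genes. Of the 47 tested markers of the other 7 lists, edgeR called 0 in the slope, against 0.168% of all genes, and DESeq2 called 2. At an unadjusted p of 0.05 or less by edgeR there were 8. Of these 5 were lower and 3 higher, against 8.37% and 6.83% of all genes. The part of cell composition in the values of the members was not tested.

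Lastly, the gene whose log2(CPM + 1) followed each member most closely over the 12 libraries was looked up among 15329 other named genes with a mean of 1 CPM or more. Pearson's r was 0.97 for Dnmt1 with Spats2, 0.97 for Uhrf1 with Lig3, a DNA ligase, 0.97 for Tet3 with Bpifb5 and 0.95 for Dnmt3l with 4933424G06Rik. It was 0.93 for Tet2 with Slc38a2, 0.91 for Uhrf2 with Pi4kb, 0.87 for Dnmt3b with Asph, 0.87 for Tet1 with Zfp708, 0.85 for Dnmt3a with Osgepl1 and 0.80 for Tdg with Srms. These are the highest of many values over libraries that share their normalization, and they are given as a description.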

How the data were processed

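Total RNA of 12 testes was depleted of ribosomal RNA and sequenced without strand information. The authors aligned reads with HISAT2 to mm10 and ran StringTie 1.3.3b for assembly and quantification. Deposited were, per library, an estimated count (derived from coverage, transcript length and read length, as whole numbers) and an FPKM for each transcript, the latter not normalized between libraries. The deposited assemblies give the coverage of each exon. All columns were mapped to samples by their labels.

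Counts were used as deposited, summed per gene over class codes =, c, j and o, and fitted in edgeR 4.0.16 (R 4.3.3) by its quasi-likelihood test, after filterByExpr and TMM normalization, with Benjamini-Hochberg adjustment over all features tested. Pairwise fits held the 6 libraries compared and the slope on age in months all 12. Calls needed an adjusted p of 0.05 or less. DESeq2 1.42.0 was an alternative, and its empty adjusted p-values count as no call. Confidence intervals at 95% used the total degrees of freedom of the fit. Shares, exon coverage, continuous change and correlations are descriptions. Scripts were tested on simulated data. Python 3.11.15, pandas 2.3.3 and numpy 2.4.6 served for other steps.

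The members, the pathway and marker lists and the tests were chosen with earlier results of these data known. Named were all members and the most similar gene of each. Forms were named in part. Forms with 10% or more of a gene were left unnamed in Dnmt1, Dnmt3b, Uhrf1, Tet1, Tet2 and Tdg. Alternatives were other size factors, no filter, DESeq2, a fold minimum, unadjusted p, a replicate block, all 12 libraries, other class codes, other FPKM minimums, medians, TMM-normalized CPM, shares of counts and each library left out. The reads of Gm9855 added to Tdg and the FPKM of forms per first exon were added after seeing the data. Promoter windows and gene models came from RefSeq (all 10 genes matched) and GENCODE vM21; protein sequences were not used here.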

Additional observations from a re-analysis of the deposited data

How the results depend on the processing

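At an adjusted p of 0.05 or less, 0 members were called in each alternative, with edgeR or DESeq2, in each of the 5 gene comparisons and both transcript comparisons. At an unadjusted p, 3 members (Tet3, Uhrf1 and Uhrf2) passed between 3M and 18M and 3 (Dnmt1, Tet3 and Uhrf2) in the slope. The adjusted p nearest to the threshold was that of Tet3 in the slope with DESeq2, 0.065, and over its 20 alternatives the change of Tet3 over 15 months ranged from -0.44 to -0.27. The sign held in all alternatives of both tests for 8 members; Dnmt3a (-0.06 to 0.05 between 3M and 18M) and Tdg (-0.11 to 0.90) crossed 0. Leaving out 1 library left 1 to 3 members with continuous change, with 1 (Dnmt3l) without 6M replicate 3 and 1 (Uhrf1) without 12M replicate 2.

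Counts over all genes moved more. Between 3M and 18M, 16 genes were called, 40 with class = alone, 25 with all 12 libraries in the fit, 296 with DESeq2, and 18 to 35 without 1 library; in the slope the counts were 43, 9 with class = alone, 549 with DESeq2, 26 with the fold minimum, and 13 (without 18M replicate 3) to 114 (without 18M replicate 1). The 59 transcripts called between 3M and 18M became 22 without a filter, 18 with all libraries and 2098 with DESeq2, and the 6 of the slope 3 without a filter and 1075 with DESeq2; without 1 library they became 8 (without 18M replicate 3) to 25 (without 3M replicate 2) and 3 to 8. The cause was not tested. Between neighbouring ages, DESeq2 called 114, 132 and 62 genes against 17, 10 and 4 with edgeR, which became 21 to 42, 13 to 24 and 8 to 24 without 1 library. The first-exon shares depended on the measure: by FPKM of forms the downstream share was 66.5% for Uhrf1, 50.9% for Dnmt1 and 97.7% for Dnmt3l, against 97.3%, 75.0% and 93.5% by coverage.

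Mouse numbers recur at each age, but the labels do not pair the mice. Deviations from the age means correlated at -0.07 to 0.08 in 18 same-numbered pairs, none over 0.1. With a replicate block, 0 members were called in each comparison, and the counts over all genes were 0 between 3M and 18M and 22 in the slope.

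Depth limits Tet1 (33 to 62 estimated reads per library) most, followed by Tdg under its symbol alone (69 to 237, beside 224 to 421 under Gm9855) and Tet2 (177 to 350), and 3 mice per age limit all comparisons.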
